A study of Mus musculus with 2 samples.

Results

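The genes described here are those that carry a cell from G1, the first gap of the cell cycle, into S phase: the D cyclins Ccnd1, Ccnd2 and Ccnd3, the E cyclins Ccne1 and Ccne2, the cyclin-dependent kinases Cdk2, Cdk4 and Cdk6, the retinoblastoma gene Rb1 and the transcription factor gene E2f1. They were measured in whole lenses of wild-type mice, strain C57/BL6, at 60 days of age (P60) and at 7 days (P7). Lenses of each age were pooled and 1 biotin-labelled RNA sample per age was hybridised to a mouse Affymetrix array. How many animals or eyes a pool held, and their sex, is not stated in the labels, and neither age carried a transgene or a treatment. The members are the probe sets (groups of short probes for 1 transcript) to which the platform annotation gives exactly 1 gene symbol, that symbol being 1 of the 10. They are 29 of 45101 probe sets and 10 of 18194 named genes. With 1 array per age no value has a replicate, no test between the ages is possible, and every difference is given by its size alone.

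D cyclins are made when growth factors act on a cell and bind Cdk4 or Cdk6. The active kinases phosphorylate the Rb protein, which otherwise holds E2F factors inactive. Released E2F proteins switch on the E cyclins, which activate Cdk2, and the genes of DNA replication. In the lens, dividing cells lie in the epithelium at the front, and cells leave the cycle as they become fibre cells, a step for which Rb is needed in mice.

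None of the 10 genes was 2-fold higher at P60 and 1, Ccne2, was 2-fold lower, when each gene was read on its brightest probe set. The count of lower genes was 0 of 9 with a floor of 200, against 822 of all 10480 genes. It was 3 of 9 when only plain probe sets, without a suffix for shared probes, were read, against 1070 of 11335. Of all 13029 genes read on the brightest probe set with the main floor, 11.5% reached 2-fold upward and 9.44% reached it downward at P60. The log2 ratios of the 10 genes, P60 over P7, ran from -1.09 for Ccne2 to 0.44 for Cdk6 with a median of -0.24, against a median of 0.02 over all measured genes. Ratios were above 0 for 3 genes (Ccnd1, Ccnd2 and Cdk6) and below 0 for 7. At the level of single probe sets, 25 of the 29 were above a floor of 103.9 on at least 1 array. The floor is the median taken over both arrays together, and values under it were raised to it before ratios were taken. Of these 25, 4 reached 2-fold downward and none upward, against 10.6% and 9.89% of the 22462 named probe sets above the floor. The 4 belong to Ccnd2, Ccne1, Ccne2 and E2f1. As a guide to error, the log2 ratios of probe sets of the same gene differed with an SD of 0.58 over 4239 genes. Of the 25 ratios, 17 lay within that SD of 0, 7 lay below it and 1 above it. This split depends on the SD used, which was 0.64 for signals up to 500, 0.52 from 500 to 2000 and 0.40 above. Against the SD of their own signal range, Ccnd1 1448698_at (0.57), Ccnd2 1455956_x_at (0.56) and Cdk6 1455287_at (0.56) lay above it. Ccnd3 1444323_at (0.59) and E2f1 1431875_a_at (-0.63) then fell within it. These SDs say nothing of variation between animals, pools or hybridisations. In whole lenses, fewer cells of a type and less RNA per cell cannot be told apart.

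**Figure D1:**
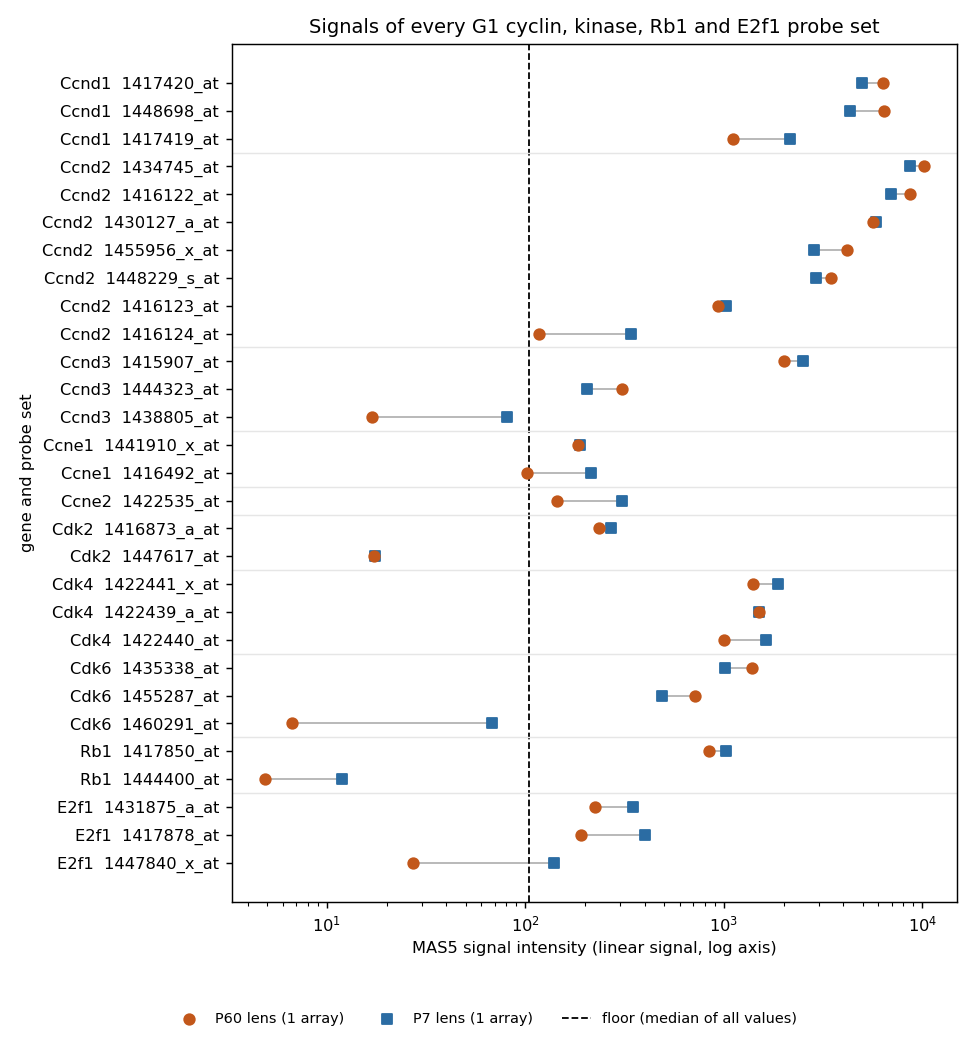
MAS5 signal intensity (log axis) of all 29 probe sets, 1 row each, with the P60 array as a circle, the P7 array as a square and the floor of 103.9 as a dashed line. The points of most Ccnd1 and Ccnd2 probe sets lie far right of the floor and close to each other. Those of Ccne1, Ccne2, Cdk2 1416873_a_at and most of E2f1 lie nearer the floor. Both points of Cdk2 1447617_at and the P60 point of E2f1 1447840_x_at lie well left of it.

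The mean intensity after trimming 2% of probe sets at each end was 500.003 at P60 and 500.004 at P7, an equality of the kind MAS5 scaling sets. The median, which that scaling does not fix, was 93.9 at P60 and 112.9 at P7, and 47.8% of probe sets at P60 and 52.2% at P7 lay above the floor. The ratio of 5′ to 3′ signal was lower at P60 for beta-actin (0.606, against 0.785 at P7), for Gapdh (1.29, against 1.39) and for the dap spike-in (0.0262, against 0.0995). Lens markers were present as labelled. All 6 of 6 lens fibre genes (such as Mip and Lim2) were above the floor on both arrays and within 2-fold, and of 5 epithelial genes Cdh1 and Pdgfra were 2-fold higher and Foxe3 2-fold lower at P60. Of 7 vascular endothelial genes, 6 were measured and all 6 were at least 2-fold lower. Their summed intensity over the 7 was 544 at P60 and 3281 at P7, only Kdr stayed above the floor at P60, and Pecam1 was under it on both arrays. Erythroid genes summed to 117 at P60 and 478 at P7, with Hba-a2 (179) and Hbb-b2 (173) above the floor at P7 only and Alas2 under it on both arrays. All 5 pigment cell genes had ratios below 0 and summed to 923 at P60 and 1961 at P7. Apart from the corneal list, where all 3 measured genes had ratios above 0, the other lists did not move one way. Pericyte genes summed to 5912 at P60 and 10037 at P7, with Rgs5 85.9-fold lower and Pdgfrb 9.72-fold higher. Retinal genes summed to 1445 at P60 and 2229 at P7, with Gnat1 at least 7.59-fold higher and Pdc, Nrl and Crx at ratios of -2.15, -1.70 and -0.62. Leukocyte genes summed to 1060 at P60 and 851 at P7, with Cd74 2.93-fold higher, Csf1r at 429 at P60 and 420.3 at P7, Adgre1 at a ratio of -0.25, and Ptprc under the floor on both arrays. The corneal sum, 18990 at P60 and 328 at P7, was nearly all Aldh3a1 (18639 at P60 and 62.6 at P7), while Krt5 and Krt14 had ratios of 0.21 and 0.23 and Krt12 passed the floor on neither array. The fibroblast sum, 1836 at P60 and 465 at P7, was mostly Col1a2 (1604 at P60 and 174 at P7), while Col3a1 read 25.4, under the floor, at P60 and 158 at P7 and Dcn was under it on both. What part such cells had in the values of the G1 genes was not tested.

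The D cyclins had signals well above the floor at both ages and did not move as a group. Of 12 of their 13 probe sets that passed the floor, 7 had ratios above 0 and 5 below, with a median of 0.24 and a range from -1.54 to 0.59. Ccnd1 encodes cyclin D1, the D cyclin most closely tied to growth factor signalling. Its brightest probe set, 1417420_at, read 6362 at P60 and 4937 at P7, a log2 ratio of 0.37. Probe set 1448698_at read 6435 at P60 and 4322 at P7 (0.57). The third, 1417419_at, went the other way, with 1114 at P60 and 2156 at P7 (-0.95). The 3 probe sets thus spanned 1.53 on the log2 scale. Of 1010 genes with 3 probe sets that passed the floor at both ages, 16.3% had a span at least as wide, and their median span was 0.86. The direction for Ccnd1 therefore depends on the probe set, and the mean of its 3 ratios was close to 0 (-0.0044). Where each probe set lies in the transcript is not stated in the annotation used, and 5′ to 3′ signal ratios of control genes were lower on the P60 array, as given above. Their part in the difference between these probe sets was not tested.

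Ccnd2 encodes cyclin D2 and was covered by 7 probe sets, all above the floor at both ages. The brightest, 1434745_at, read 10247 at P60 and 8697 at P7 (log2 ratio 0.24). Next in brightness, 1416122_at read 8684 at P60 and 6911 at P7 (0.33). Probe set 1430127_a_at read 5616 at P60 and 5818 at P7 (-0.05). Each of these 3 differed by at most 1.26-fold between the ages. Probe set 1455956_x_at read 4181 at P60 and 2833 at P7 (0.56), and 1448229_s_at read 3457 at P60 and 2918 at P7 (0.24). Probe set 1416123_at read 936 at P60 and 1023 at P7 (-0.13). The dimmest, 1416124_at, stood apart from the other 6, with 117 at P60 and 340.02 at P7, 2.90-fold lower. Its P60 value lay just above the floor, where a ratio is close to a bound. The span of the 7 ratios was 2.10, and 3 of the 13 genes with 7 such probe sets, Ccnd2 among them, had a span at least that wide.

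Ccnd3, the gene of cyclin D3, had 2 of 3 probe sets above the floor. The brighter, 1415907_at, read 2014 at P60 and 2502 at P7 (log2 ratio -0.31). The dimmer, 1444323_at, read 306 at P60 and 204 at P7 (0.59). They point in opposite directions, 0.90 apart, a span that 23.9% of 2671 genes with 2 probe sets reached. The third, 1438805_at, was under the floor on both arrays, with 16.9 at P60 and 80.9 at P7, and gives no ratio.

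**Figure D2:**
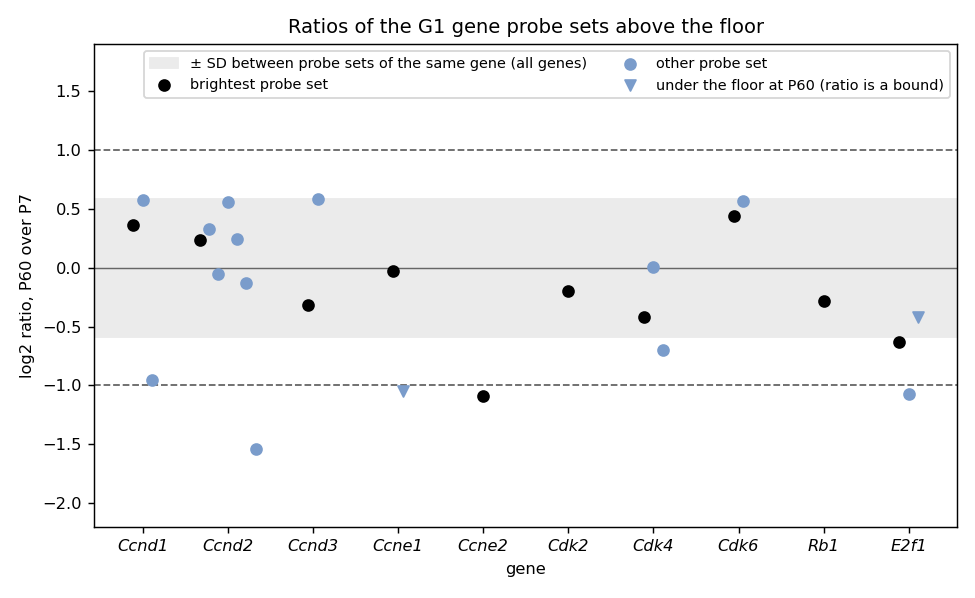
Log2 ratio of signal, P60 over P7, for the 25 probe sets above the floor on at least 1 array, by gene, with the brightest probe set of each gene in black and triangles where the P60 value was under the floor. Dashed lines mark 2-fold and the grey band the same-gene SD of 0.58. Ccnd1, Ccnd2 and Ccnd3 have points on both sides of 0, both Cdk6 points lie above 0 and all points of Ccne1, Ccne2 and E2f1 lie below 0.

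The kinases that partner the D cyclins differed in direction from each other. Cdk4 encodes a kinase that D cyclins activate. Its probe set 1422441_x_at read 1396 at P60 and 1864 at P7 (log2 ratio -0.42), and 1422440_at read 1002 at P60 and 1622 at P7 (-0.69). The third, 1422439_a_at, read 1509 at P60 and 1506 at P7, a ratio of 0.0028. Cdk4 was thus level on 1 probe set and up to 1.62-fold lower on the others, and its span of 0.70 was exceeded or equalled by 62.3% of genes with 3 probe sets. Cdk6, its close relative, was higher at P60 on both probe sets above the floor. Probe set 1435338_at read 1381 at P60 and 1016 at P7 (0.44), and 1455287_at read 717 at P60 and 485 at P7 (0.56). These ratios lay 0.12 apart, 1.36-fold and 1.48-fold higher, and 86.6% of genes with 2 probe sets had ratios at least that far apart. The third Cdk6 probe set, 1460291_at, was under the floor on both arrays (6.69 at P60 and 67.6 at P7). Both Cdk6 ratios lay inside the same-gene SD of 0.58 over all signals. Against the SD of 0.52 for signals from 500 to 2000, 1455287_at (0.56) lay outside and 1435338_at (0.44) inside.

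RefSeq promoter sequence on the GRCm38.p6 build was at hand for 6 of the 10 genes (Ccnd3 with 2 start sites, Ccne1, Cdk2, Cdk4, Cdk6 and E2f1), and was searched on both strands in the 250 bases before the start for the E-box CACGTG, which Myc and related factors bind, and for the E2F site in its forms TTTCCCGC, TTTCGCGC, TTTGCCGC and TTTGGCGC. These motifs do not overlap each other in the windows shown. The Cdk4 window is shown because it holds 4 E-boxes, the kinase gene being a known Myc target in human cells. It spans chr10:127063285-127063534 on the plus strand, with the E-boxes in capitals.
Cdk4: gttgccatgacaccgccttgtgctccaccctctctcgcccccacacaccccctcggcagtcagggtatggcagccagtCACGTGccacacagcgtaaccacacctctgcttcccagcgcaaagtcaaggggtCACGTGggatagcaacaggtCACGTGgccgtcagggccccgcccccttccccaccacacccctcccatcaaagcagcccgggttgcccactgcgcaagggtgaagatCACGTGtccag
The E-boxes begin 172, 118, 98 and 11 bases before the start. At least 1 E-box was present in 6.02% of all 32851 windows, and 4 or more in 7 of them. The Cdk6 window held 1 E-box, 220 bases before its start, which lies inside the annotated gene, and the other member windows none. On the arrays Myc itself was under the floor at both ages (61.7 at P60 and 102.8 at P7), so that no ratio is given for it. Its relative Mycn read 1645 at P60 and 3307 at P7, 2.01-fold lower, with its other measured probe set at a log2 ratio of -0.31. Whether Myc, Mycn or the E-boxes bear on the Cdk4 or Cdk6 values was not tested.

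The E cyclins had signals close to the floor, and Ccne2 had the lowest ratio of the 10 genes. Ccne2, the gene of cyclin E2, has 1 probe set, 1422535_at, which read 144 at P60 and 308 at P7, 2.13-fold lower (log2 ratio -1.09). No second probe set bears on it. Ccne1, the gene of cyclin E1, has 2 that disagree. Probe set 1441910_x_at read 184 at P60 and 188 at P7 (-0.03), and 1416492_at read 101.4 at P60, under the floor, and 215 at P7, at least 2.07-fold lower. After quantile normalization of the arrays the Ccne1 ratio on the brightest probe set was 0.09, so its sign is not settled. Among probe sets with signals from the floor to 500, ratios of the same gene differed with an SD of 0.64, against 0.52 from 500 to 2000 and 0.40 above that. Of 6525 genes in the dim range under 500, 11% were at least 2-fold lower at P60, which sets the scale for the Ccne2 value.

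Cdk2, the kinase that E cyclins activate, had 1 of 2 probe sets above the floor. Probe set 1416873_a_at read 234 at P60 and 269 at P7 (log2 ratio -0.20), well within the spread between probe sets. The other, 1447617_at, read 17.3 at P60 and 17.5 at P7. Its promoter window is shown because among the member windows only this one held an E2F site. The window spans chr10:128705052-128705301 on the minus strand, with the site in capitals in its reverse form GCGGGAAA, 140 bases before the start.
Cdk2: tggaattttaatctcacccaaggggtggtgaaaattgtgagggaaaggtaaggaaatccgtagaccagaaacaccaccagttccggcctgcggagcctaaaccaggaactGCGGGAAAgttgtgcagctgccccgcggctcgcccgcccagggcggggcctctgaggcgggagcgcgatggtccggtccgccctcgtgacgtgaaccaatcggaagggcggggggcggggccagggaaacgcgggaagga
An E2F site was found in 1.86% of all windows and in 8 of 21 windows (38.1%) of E2F target genes of S phase. The Ccne1, Cdk4, Cdk6, Ccnd3 and E2f1 windows held none of the 4 forms, which says only that these letters are not in them. The E2f1 and Cdk6 windows belong to start sites inside the annotated gene and lie wholly within it. The bases before the outer start of E2f1 and of Cdk6 were therefore not searched.

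Rb1 encodes the protein that holds E2F factors inactive. Its probe set 1417850_at read 843 at P60 and 1023 at P7 (log2 ratio -0.28), and the other, 1444400_at, was under the floor with 4.86 at P60 and 11.9 at P7. E2f1, the founding member of the E2F family and an activator of S-phase genes, was lower at P60 on all 3 probe sets. Probe set 1431875_a_at read 225 at P60 and 349 at P7 (-0.63), and 1417878_at read 191 at P60 and 402 at P7, 2.10-fold lower (-1.07). The third, 1447840_x_at, read 27.1 at P60, under the floor, and 139 at P7, at least 1.34-fold lower. The direction was thus the same on every E2f1 probe set, and the 2 measured at both ages lay 0.44 apart, less than the median of 0.51 for genes with 2 probe sets. All 6 probe sets of Ccne1, Ccne2 and E2f1 had ratios below 0, and 3 of the 6 were at least 2-fold lower, against 10.6% of all named probe sets above the floor. These 3 genes were put together after their values were seen, and the Ccne1 probe set at -0.03 turned to 0.09 under quantile normalization.

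The genes that work beside these 10 were taken from 8 lists. Beside the count of each list stand the shares of all measured genes, 11.5% 2-fold higher and 9.44% 2-fold lower. Of the other E2F and DP factors, 9 of 9 were measured, 2 were 2-fold lower and no gene 2-fold higher (median -0.49). On the dimmest probe sets the median was -0.08 and 1 of 9 genes was 2-fold higher, against 1203 of all 13128 genes. That gene was E2f5, whose probe sets ran from -1.56 to 1.46. With a floor of 200, 1 of 6 genes was 2-fold lower, against 822 of all 10480 genes. E2f7, which represses E2F targets, read 22.6 at P60, under the floor, and 357 at P7, at least 3.44-fold lower. Tfdp1, the DNA-binding partner of E2F proteins, read 830.1 at P60 and 2188 at P7, 2.64-fold lower. The highest ratios were those of E2f4, a repressor E2F (160 at P60 and 85.4, under the floor, at P7, at least 1.53-fold higher), and of Tfdp2 (0.55). Of 8 Rb relatives and MuvB subunits, Rbl2 was 2.31-fold higher (901 at P60 and 389 at P7) and none was 2-fold lower, with a median of -0.10. With the dimmest probe set, the mean of probe sets or plain probe sets only, no gene was higher and 1 was lower. Of all genes, 1370 of 13128, 1081 of 13128 and 1070 of 11335 were lower in these settings, and 1203, 1173 and 1251 were higher. The median of the list was -0.32 on the dimmest and -0.54 on plain probe sets. The brightest probe set of Rbbp4, a histone-binding subunit, had a ratio of -0.06 and its other 3 ran from -2.49 to -1.46. Rbl2 encodes p130, the Rb relative of resting cells, and its other probe set had a ratio of 0.27. Its sister gene Rbl1, which encodes p107, read 367 at P60 and 597 at P7 (-0.70), and Lin9 had a ratio of -0.77 and Lin37 of 0.42.

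Of the 23 listed E2F target genes of S phase, 19 were measured, 16 had ratios below 0, 5 reached 2-fold downward and no gene upward (median -0.42), against 9.44% and 11.5% of all measured genes. The lower count was 8 with a floor of 50 or none and 3 with a pseudocount of 100. Over all genes, 2032 of 15628 were lower with a floor of 50, 3701 of 18194 with none and 1059 of 13029 with the pseudocount. With no floor 1 target was 2-fold higher, against 2830 of the 18194 genes. The lowest was Tk1, thymidine kinase, with 21.3 at P60, under the floor, and 422 at P7, at least 4.07-fold lower. Cdk1, the mitotic kinase, read 184 at P60 and 716 at P7, 3.89-fold lower. Uhrf1, Mcm3 and Ccna2 were 2.52-fold, 2.36-fold and 2.08-fold lower, Mcm3 with probe sets on both sides of 0. At the other end, Pola1 of DNA polymerase alpha had a ratio of 0.76 and Orc1 of the origin recognition complex 0.42. The medians of the G1 genes (-0.24) and of these targets (-0.42) are descriptions of 1 pair of arrays, and whether they differ was not tested.

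**Figure D3:**
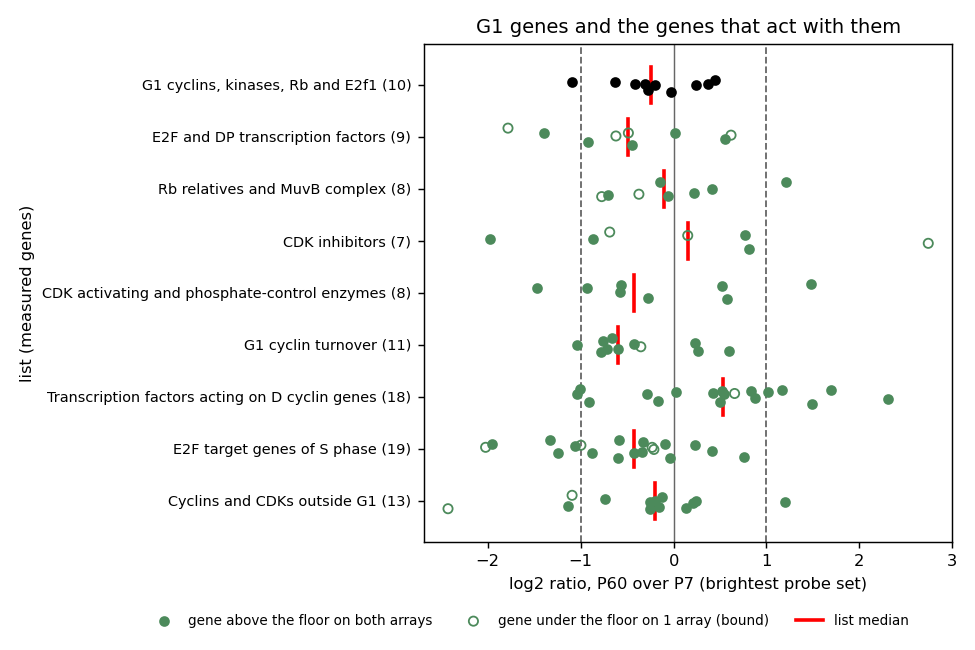
Log2 ratio of signal, P60 over P7, on the brightest probe set of each measured gene, for the 10 G1 genes (black) and 8 lists of genes that act with them, with the median of each list as a red bar, open circles for genes under the floor on 1 array, and dashed lines at 2-fold. The G1 genes lie between -1.09 and 0.44, and Tk1 and Cdk1 are the 2 lowest E2F targets near -2.

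Among inhibitors of the kinases, 1 of 7 was 2-fold higher and 1 of 7 lower, near the shares of 11.5% and 9.44% of all measured genes. Of 7 measured CDK inhibitors, Cdkn2b, whose protein p15 blocks Cdk4 and Cdk6, was at least 6.69-fold higher (695 at P60 and 97.3, under the floor, at P7). Cdkn1c, whose protein p57 acts in fibre cell cycle exit in mice, was 3.92-fold lower, with 6491 at P60 and 25468 at P7. Cdkn1b had a ratio of 0.81, with its other probe set at -0.69, and Cdkn2d of -0.87, and the median was 0.15 (-0.69 on the dimmest probe sets, 0.72 with a floor of 50 or none and 0.77 with a floor of 200). Of 8 measured kinase-activating and phosphate-control enzymes, 1 was 2-fold higher and 1 lower (median -0.42, or 0.49 on plain probe sets alone). Over the alternatives the higher count ran from 1 to 2, the 2 of 9 on the dimmest probe sets, against 1203 of all 13128 genes. The lower count was 2 of 9 with no floor, against 3701 of all 18194 genes. It was 0 of 9 on the dimmest probe set or the mean of probe sets, against 1370 and 1081 of all 13128 genes. Wee1, which inhibits Cdk1 by phosphorylation, read 956 at P60 and 342 at P7, 2.80-fold higher. Cdk7, the CDK-activating kinase, was 2.77-fold lower on its brightest probe set, but its 5 probe sets ranged from -1.47 to 0.51. Pkmyt1 had a ratio of -0.93 and the chaperone gene Cdc37 of 0.58.

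Genes that mark G1 cyclins and p27 for destruction had a median of -0.60, with 8 of 11 ratios below 0. Of them, 1 was 2-fold lower, against 9.44% of all measured genes. The median was -0.35 on the dimmest probe sets. The lower count was 2 of 11 with a floor of 50 or none, against 2032 of all 15628 and 3701 of all 18194 genes. It was 0 with a floor of 200, the mean of probe sets, plain probe sets or quantile normalization. Of all genes, 822 of 10480, 1081 of 13128, 1070 of 11335 and 1218 of 13017 were lower there. The gene that was lower in the main setting was Skp2, the F-box protein that targets p27, with 154 at P60 and 317 at P7, 2.05-fold lower. The 5 measured Skp2 probe sets ran from -1.73 to -0.05, both bounds, with P60 values of 17.8 and 57.1 under the floor. Skp1, its partner in the ubiquitin ligase, had a ratio of -0.78. Fbxo31 and Fbxo4, F-box proteins for cyclin D1, had ratios of 0.60 and 0.26. Transcription factors that act on D cyclin genes had a median of 0.53 (-0.03 on the dimmest probe sets). Of these 18 genes, 5 were 2-fold higher and 2 lower, against 11.5% and 9.44% of all measured genes. The higher count was 3 of 16 with a floor of 200, against 1181 of all 10480 genes. With a pseudocount of 100 it was 3 of 18, against 1177 of all 13029 genes. The lower count ran from 0 to 2 over the alternatives. It was 0 of 18 with the pseudocount or the mean of probe sets, against 1059 of 13029 and 1081 of 13128 of all genes. Foxo3, which represses D cyclins in quiescent cells, read 4848 at P60 and 977 at P7, 4.96-fold higher, its other measured probe set at 0.36. Stat3, which acts downstream of cytokine receptors, was 3.23-fold higher on its brightest probe set, with another at -0.54. The 2 lowest were Lef1, a Wnt pathway factor (112 at P60 and 230.2 at P7, 2.06-fold lower), and Mycn. Of 13 measured cyclins and kinases outside G1, 3 were 2-fold lower and 1 higher, with a median of -0.20. Over the alternatives the lower count ran from 2 of 13, as with a floor of 200, to 5 of 15 with no floor. Of all genes, 822 of 10480 and 3701 of 18194 were lower in those settings. The higher count ran from 0 of 13 on the dimmest probe sets to 2 of 13 on plain probe sets, against 1203 of 13128 and 1251 of 11335 of all genes. Ccnb2, a mitotic cyclin, was at least 5.38-fold and Ccnt1, a cyclin of transcription, 2.20-fold lower, while Ccni was 2.30-fold higher and Ccng1 had a ratio of 0.24.

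The genes nearest to the extreme members in the plane of both log2 signals were found over the 2 arrays only. For Cdk6, among 10598 other genes above the floor at both ages, they were Abcc1 (1364 at P60 and 1015 at P7, a distance of 0.018 on the log2 scale), 3830406C13Rik and Ttyh3, and 34 genes lay within 0.1. For Ccne2 they were Rita1 (143 at P60 and 304 at P7, a distance of 0.025), 2810013P06Rik and Rasl2-9, and 15 genes lay within 0.1.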

How the data were processed

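The authors deposited 1 linear signal intensity per probe set and array, made with MAS5 per the submitters' processing notes. The sources used here do not give its version, settings or detection calls. Probe sets were named through the platform annotation: 34958 had 1 symbol, 932 several and 9211 none, and symbols were updated by gene number (34754 matched). The members and lists were chosen with earlier results of these data known. A gene was read on its probe set of highest mean log2 intensity and counted as measured when that exceeded the floor on at least 1 array. A fold against a value under the floor is a lower bound, written "at least". A log2 ratio with 1 value under the floor is likewise a bound. Examples are Lin9, Krt14, the highest E2f5 value, the dimmer measured Mycn probe set and the lowest Stat3 value. A gene counted as higher or lower from 2-fold on, and no p-value was computed. The genes named are the 10 members on every probe set, the 2 highest and 2 lowest of each list, and the 3 nearest genes of the highest and lowest member. The others (among them Uhrf1, Mcm3, Ccna2, E2f5, Rbbp4 and Myc) were chosen after their values were seen. The calculation was run on simulated data, with changes above 2-fold planted in genes far above the floor and noise smaller than the same-gene spread. That run does not bear on 2-fold calls near the floor. Python 3.11.15, numpy 2.4.6, pandas 2.3.3 and matplotlib 3.10.9 were used. Promoters come from RefSeq (GRCm38.p6). Having 1 array per age limits all precision.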

Additional observations from a re-analysis of the deposited data

How the results depend on the processing

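The G1 genes and the E2F targets were recomputed under 9 alternatives: floors of 50 and 200, a pseudocount of 100, no floor or filter, the dimmest probe set or the mean of probe sets per gene, plain probe sets only, quantile normalization, and centred ratios. None of the 10 genes was 2-fold higher under any of them. The count of 2-fold lower genes was 1, but 0 with a floor of 200 or the pseudocount, and 3 with the dimmest probe set (Ccnd2, Ccne1 and Ccne2) or plain probe sets only (Ccne1, Ccne2 and E2f1). Over all genes, 1370 of 13128 were lower on the dimmest probe set and 1070 of 11335 on plain probe sets. Under quantile normalization the 1 lower gene was E2f1 (-1.03) and Ccne2 stood at -0.9993. Without it E2f1 was -0.63 on its brightest probe set and -1.07 on 1417878_at, which was close to it in signal. Whether the E2f1 probe set read changed with the normalization is not shown. The median over the G1 genes was -0.56 with the dimmest probe set. The median of the E2F targets was -0.60 with a floor of 50 or the dimmest probe set, -0.59 with no floor and -0.58 with the pseudocount, and their count of 2-fold lower genes ran from 3 to 8. With a floor of 50, 2032 of all 15628 genes were 2-fold lower, and with no floor 3701 of 18194 were lower and 2830 higher. Of 322 other values by setting, 64 were marked as moved. For ratios of single genes this meant a shift beyond the probe set spread, and for counts a change of more than 1.5 times. Medians of lists were marked at shifts smaller than that spread, such as from -0.10 to -0.32 for the Rb relatives with the dimmest probe set. The median of the CDK inhibitors ran from -0.69 with the dimmest probe set to 0.77 with a floor of 200. With the dimmest probe set that of the D cyclin regulators was -0.03, and with plain probe sets that of the kinase-activating enzymes was 0.49. No paired analysis was possible because each age has 1 array.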
